A study of Mus musculus with 4 samples.

Results

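Osteoclasts and their precursors release or display signals that act on the osteoblast lineage. Of these coupling factors, 8 genes are described here, taken by exact symbol from the 53801 genes of the deposited count table: Tgfb1, Pdgfb, Bmp6, Sema4d, Efnb2, Slit3, Sphk1 and Cthrc1. The animals were wild-type C57BL/6 mice, 2 in all, and the osteoclast precursor cells of each are numbered precursor cells 1 and 2. Cells of each number received either DKK1 at 200 ng/ml or PBS (phosphate-buffered saline, the control) for 3 h, which gives 4 libraries called PBS 1, DKK1 1, PBS 2 and DKK1 2. DKK1 (Dickkopf-1) is a secreted protein that binds the Wnt co-receptors Lrp5 and Lrp6 and blocks canonical Wnt signalling. The labels give neither the age of the animals nor how the precursors were isolated or kept in culture.

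Bone is renewed where resorption by osteoclasts is followed by formation by osteoblasts at the same site, and coupling factors carry information from the first cell to the second. Some come out of the resorbed matrix or are secreted as growth factors (TGF-beta 1, encoded by Tgfb1; PDGF-BB, from Pdgfb; BMP6). Some sit on the membrane and guide or restrain neighbouring cells: semaphorin 4D, from Sema4d, binds plexin-B1 on osteoblasts and lowers bone formation, while ephrin-B2, from Efnb2, engages EphB4. Slit3 is a secreted ligand of Robo receptors, Sphk1 is a kinase that makes sphingosine 1-phosphate, a lipid messenger for osteoblast lineage cells, and Cthrc1 is a secreted glycoprotein described in mature, resorbing osteoclasts.

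Of the 8 genes, Sema4d and Tgfb1 account for most of the counts below, and the windows before their annotated starts are shown for that reason. RefSeq (GRCm38.p6) has 3 starts for Sema4d and 1 for Tgfb1 in the table used here, and the 250 bases before each are printed 5′ to 3′ on the strand of the gene. All 3 Sema4d windows lie inside the span of the gene as GENCODE M21 draws it, and windows 2 and 3 touch exons of other Sema4d transcripts. Capitals mark the single AP-1 motif (TGANTCA).
Sema4d window 1, chr13:51739447-51739696, minus strand: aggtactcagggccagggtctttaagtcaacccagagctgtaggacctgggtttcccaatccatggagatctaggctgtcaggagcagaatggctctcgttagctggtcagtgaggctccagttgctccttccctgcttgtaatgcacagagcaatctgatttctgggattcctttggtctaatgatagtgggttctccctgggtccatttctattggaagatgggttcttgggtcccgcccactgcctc
Sema4d window 2, chr13:51748811-51749060, minus strand: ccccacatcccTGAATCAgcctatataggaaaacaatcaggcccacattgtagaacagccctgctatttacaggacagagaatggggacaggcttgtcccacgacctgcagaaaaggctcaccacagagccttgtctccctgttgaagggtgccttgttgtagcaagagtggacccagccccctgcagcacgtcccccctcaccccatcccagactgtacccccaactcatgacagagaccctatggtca
Sema4d window 3, chr13:51756684-51756933, minus strand: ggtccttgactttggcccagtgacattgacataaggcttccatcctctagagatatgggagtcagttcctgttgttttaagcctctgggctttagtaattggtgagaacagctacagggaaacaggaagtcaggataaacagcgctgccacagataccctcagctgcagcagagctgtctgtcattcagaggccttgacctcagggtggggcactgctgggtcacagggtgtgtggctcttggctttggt
Tgfb1 window, chr7:25686752-25687001, plus strand: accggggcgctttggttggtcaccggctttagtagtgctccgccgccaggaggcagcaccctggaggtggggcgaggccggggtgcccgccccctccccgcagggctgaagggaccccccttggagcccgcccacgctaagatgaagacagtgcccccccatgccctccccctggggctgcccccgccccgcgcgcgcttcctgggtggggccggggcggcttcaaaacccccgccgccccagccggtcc
The Tgfb1 window is richer in G and C (75.2%) than the Sema4d windows (52.4%, 55.2% and 52.0%). Efnb2, Bmp6 and Slit3 have 1 window each and Sphk1 has 5, so that 12 windows of 6 genes were searched on both strands for 4 motifs. AP-1 was found in 3 of the 12, window 2 of Sema4d and 2 overlapping windows of Sphk1 that share the match, against 6.75% of 32817 RefSeq windows of the same length. TCF/LEF motifs (CTTTGAA or CTTTGAT or CTTTGTA or CTTTGTT), the sites of the transcription factors at the end of canonical Wnt signalling, were in 0 of the 12 against 14.8% of all windows. The PU.1 motif (GAGGAAGT) and the interferon-stimulated response element were also in 0 of the 12, against 2.44% and 2.97%. A match or its absence describes these letters only and says nothing of binding. Pdgfb and Cthrc1 were not searched.

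The libraries held 41163663 to 53537927 counts. Of all genes, 26361 had a count and 17462 passed the filter on low counts, with 99.95% of the counts; 7 of the 8 coupling factors were among them, and Cthrc1 was not. The precursor label was checked on marker genes: Csf1r, the M-CSF receptor, stood at 2090 to 2450 CPM (counts scaled to the library total) and Tnfrsf11a, which encodes RANK, at 185 to 212 CPM, and 12 of 12 monocyte and precursor markers had counts in every library. The sum of the 12 was 35200 CPM in PBS 1, 34900 in DKK1 1, 23100 in PBS 2 and 23600 in DKK1 2. Most of it was Lyz2, with 26428, 26267, 13419 and 13876 CPM in the same order. Its log2 difference, precursor cells 2 over 1, was -0.78 (edgeR adjusted p = 8.9e-06). By edgeR (adjusted p under 0.05), 5 of the 12 were higher and 2 lower in precursor cells 2, against 17.9% and 15.9% of all genes tested. Of 12 markers of mature osteoclasts, 10 had counts in every library and Calcr, the calcitonin receptor, had none in any. These 12 summed to 2150 CPM in PBS 1, 2060 in DKK1 1, 2320 in PBS 2 and 2180 in DKK1 2. The most abundant were Tcirg1, at 565 to 950 CPM, and Mmp9, at 261 to 622 CPM. Other cells were represented too: the summed level of 10 B cell markers was 260 CPM in PBS 1, 172 in DKK1 1, 83.7 in PBS 2 and 80.4 in DKK1 2, that of 10 megakaryocyte and platelet markers was 1980, 1870, 1140 and 1140 CPM, and that of 11 neutrophil markers was 5840, 5700, 9430 and 9570 CPM in the same order. In RNA from a mixed culture, fewer cells of a type and less RNA per cell cannot be told apart.

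Tgfb1 and Sema4d were the most abundant of the coupling factors, followed by Pdgfb, and the other 5 had 0 to 130 counts per library. Scaled to exon length, Tgfb1 had 91.1 CPM per kilobase in PBS 1, 84.2 in DKK1 1, 72.3 in PBS 2 and 69.9 in DKK1 2. Sema4d had 46.4, 27.5, 85.4 and 84.7 on the same scale, so that it lay below Tgfb1 in precursor cells 1 and above it in precursor cells 2. Pdgfb ranged from 11.9 to 21.3, below both in every library. The mean over libraries was 79.4 for Tgfb1, 61.0 for Sema4d and 16.4 for Pdgfb, against 0.202 for Efnb2, 0.185 for Sphk1, 0.115 for Cthrc1, 0.106 for Slit3 and 0.0746 for Bmp6. The order of Tgfb1 and Sema4d is within their spread over the libraries, and so is that of the last 5 genes, whose ranges overlap. Without regard to length, Sema4d held 48.5% of all counts of the 8 genes, Tgfb1 43.6% and Pdgfb 7.54%. The FPKM values in the authors' deposited table put the first 3 at similar levels, for example 82.1 for Tgfb1, 41.8 for Sema4d and 19.2 for Pdgfb in PBS 1.

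**Figure D1:**
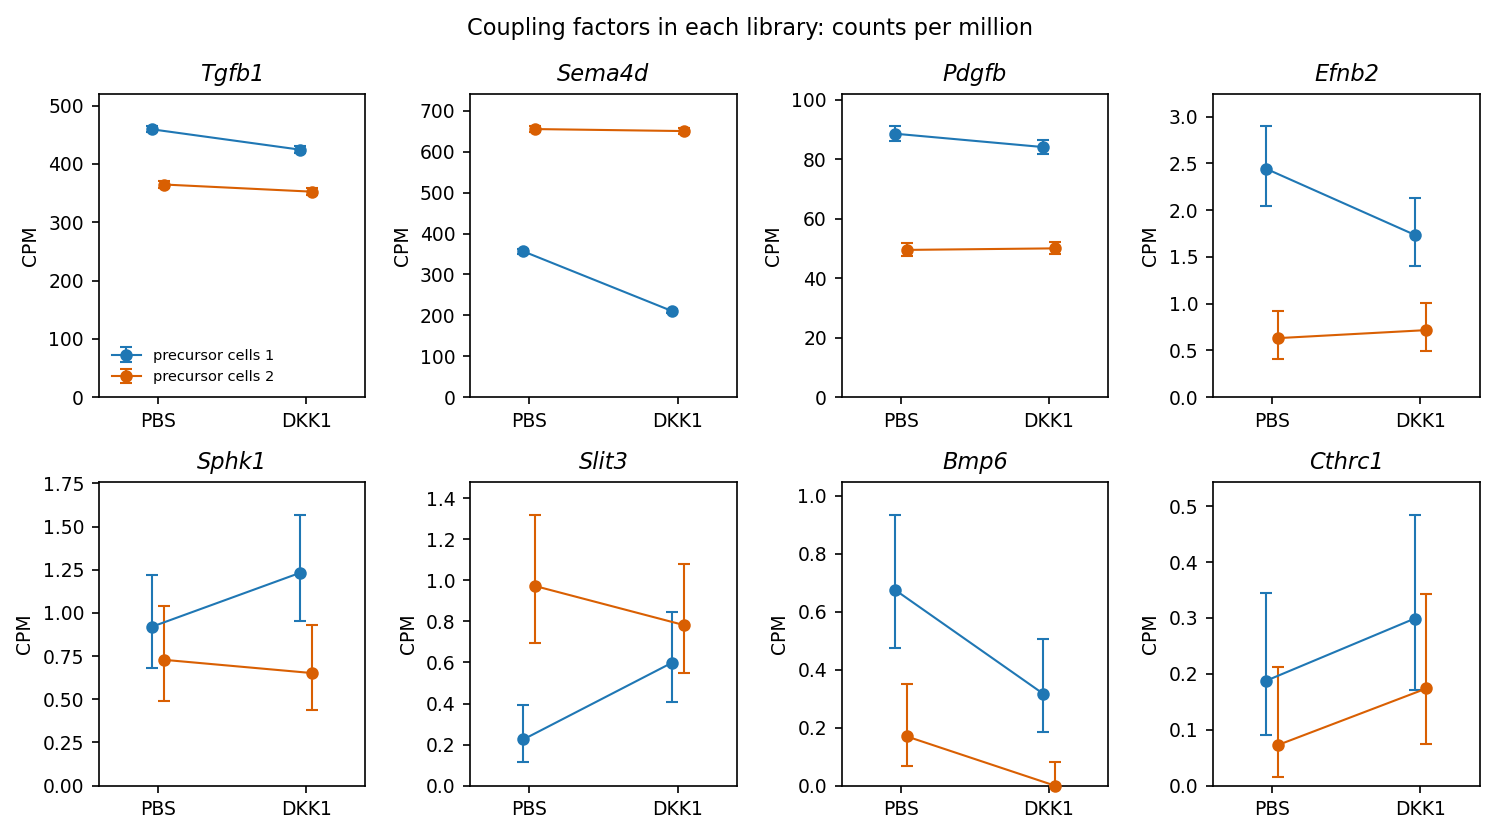
Level of each coupling factor in the 4 libraries, in CPM (linear vertical axes that start at 0 and differ between panels); points are libraries, lines join PBS and DKK1 of the same precursor cells, and bars are exact 95% Poisson intervals of the count. Sema4d had 356 CPM in PBS 1 and 211 in DKK1 1, but 656 in PBS 2 and 651 in DKK1 2. In every panel the points of precursor cells 1 and 2 do not overlap, which held for 71.3% of all tested genes. The bars of the preparations do overlap in some panels, for example those of Sphk1 and Cthrc1.

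The first comparison asked whether 3 h of DKK1 altered these transcripts, with the 2 cultures of each mouse as a pair. None of the 7 tested coupling factors passed the threshold (adjusted p under 0.05 by edgeR's quasi-likelihood test, Benjamini-Hochberg over all 17462 genes); across all genes 9 passed, or 0.0515%. At an unadjusted p under 0.05 there were 0 of the 7 and 781 genes in all (4.47%). The median log2 difference was -0.09 over the 7 genes and -0.001 over all tested genes. In no case were both DKK1 libraries above or both below the PBS libraries in CPM (0 of 7), while this held for 2648 genes, or 15.2% of those tested. That 0 carries no information of its own. In all 7 genes the 2 preparations did not overlap in CPM, as given below, and the treatments must then overlap. The spread in this fit rests on 1 residual degree of freedom shared across genes. In simulated libraries of this design the model recovered 7.46% of genes changed 1.5-fold, 43.3% of those changed 2-fold and 86.4% of those changed 4-fold. The changed genes were drawn only from genes above a minimum mean count. Sphk1, Slit3 and Bmp6 do not reach that minimum and are not covered by these rates. Each simulated gene had the spread that the trend sets for its level and the same change in both pairs. Genes with more spread are not covered either. Sema4d had a standard error of 0.162 for its fitted log2 change, against 0.047 for Tgfb1 at a similar level.

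The difference in Sema4d was in 1 pair. The gene (ENSMUSG00000021451, chr13:51685529-51793747, minus strand in GENCODE M21) had 18974 counts in PBS 1, 11293 in DKK1 1, 26986 in PBS 2 and 29940 in DKK1 2, which is 356, 211, 656 and 651 CPM. DKK1 1 is the low library, and the other pair is nearly level. DKK1 minus PBS, on the log2 scale, gave -0.76 for precursor cells 1 and -0.02 for precursor cells 2, and counting error alone spans 0.034 and 0.024 to either side. Over both pairs the fitted log2 change was -0.38 (95% CI -0.78 to 0.02, n = 2 pairs; edgeR adjusted p = 0.959). The authors' deposited table for precursor cells 1, which sets 1 library against 1, lists a log2 ratio of -0.75 with an FDR of 2.76e-27 for Sema4d, and that for precursor cells 2 lists -0.01 with an FDR of 0.903. Those tables give an FDR under 0.05 to 19.0% of their genes in the first pair and 16.7% in the second, and with 1 library a side they compare libraries, not treatments.

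Among 4038 genes with a mean of at least 50 CPM, 24 (0.594%) were as low as Sema4d or lower in DKK1 1 relative to PBS 1. In the second pair, 1705 of them (42.2%) were as low as Sema4d or lower. Of the 50 such genes lower by at least 0.5 on the log2 scale in the first pair, 4 were lower by that much in the second and 24 lay within 0.1 of no difference there. The same shares over all 4038 genes are not given here, so whether these 50 differ from other genes in the second pair was not tested. Sema4d is also made by lymphocytes, and the B cell markers went from 260 to 172 CPM in the pair in which Sema4d was lower, and from 83.7 to 80.4 CPM in the other. Of the 10 B cell markers 9 had counts in every library, and for DKK1 against PBS 0 passed, 5 had an unadjusted edgeR p under 0.05 (4.47% of all genes did), and the median log2 difference was -0.49. The marker Cd79a was lower with DKK1 in both pairs, by -0.64 and -0.31 (edgeR adjusted p = 0.86). Cd22, the other abundant marker of the list, had differences of -0.20 and -0.06 (edgeR adjusted p = 0.959). The 8 erythroid markers summed to 116 and 83.1 CPM in PBS 1 and DKK1 1 and to 157 and 122 in PBS 2 and DKK1 2; of the 7 tested, 0 passed and 4 had an unadjusted p under 0.05, with a median of -0.43. Between the preparations Sema4d and 9 of the 10 B cell markers lay in opposite directions, as given below. The part of B or erythroid cells in the Sema4d levels was not tested.

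The 2 abundant growth factors differed little. Tgfb1 (ENSMUSG00000002603, chr7:25687002-25705077, plus strand) had 24456 counts in PBS 1, 22723 in DKK1 1, 15013 in PBS 2 and 16216 in DKK1 2, which is 459, 424, 365 and 352 CPM. It was a little lower with DKK1 in both pairs, by -0.11 and -0.06 on the log2 scale. The fitted change was -0.09 (95% CI -0.20 to 0.03; edgeR adjusted p = 0.959), an interval that runs from 0.869 to 1.02 times the PBS level. Pdgfb (ENSMUSG00000000489, chr15:79995874-80014977, minus strand) had 4718, 4504, 2039 and 2303 counts, or 88.6, 84.1, 49.5 and 50.1 CPM, in the same order of libraries. Its log2 differences were -0.07 and 0.01, and its fitted change was -0.04 (95% CI -0.22 to 0.15; edgeR adjusted p = 0.983), or 0.858 to 1.11 times the PBS level.

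Efnb2, Sphk1 and Slit3 each had differences of opposite sign in the 2 pairs, and in none did both pairs lie beyond counting error. Efnb2 (ENSMUSG00000001300, chr8:8617434-8661242, minus strand) gave 130 and 93 counts for PBS 1 and DKK1 1 and 26 and 33 for PBS 2 and DKK1 2, or 2.44, 1.74, 0.632 and 0.717 CPM. The fitted log2 change was -0.34 (95% CI -1.26 to 0.59; edgeR adjusted p = 0.97). Sphk1 (ENSMUSG00000061878, chr11:116530925-116536674, plus strand) had 49, 66, 30 and 30 counts, with a fitted log2 change of 0.21 (95% CI -0.90 to 1.33; edgeR adjusted p = 0.983). Slit3 (ENSMUSG00000056427, chr11:35121224-35708507, plus strand) had 12, 32, 40 and 36 counts, and its fitted log2 change was 0.29 (95% CI -1.24 to 1.81; edgeR adjusted p = 0.983). PBS 1 was the low library for Slit3. The exact 95% interval of its 12 counts, 6.2 to 21, lies just below that of the 32 counts in DKK1 1, 21.9 to 45.2. For Sphk1 the counting intervals of PBS and DKK1 overlap in both pairs.

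Bmp6 and Cthrc1 had the fewest counts of the 8 genes. Bmp6 (ENSMUSG00000039004, chr13:38345107-38500302, plus strand) had 36 counts in PBS 1, 17 in DKK1 1, 7 in PBS 2 and 0 in DKK1 2. It was lower with DKK1 in both pairs, with a fitted log2 change of -1.36 (95% CI -3.38 to 0.66; edgeR adjusted p = 0.959). Its log2 differences were -0.99 and -2.44, with counting error of 0.822 and 4.13 to either side. The first pair thus lies beyond that error and the second does not. The exact 95% counting intervals of the 7 counts in PBS 2 (2.81 to 14.4) and the 0 in DKK1 2 (up to 3.69) overlap. Those of the first pair overlap as well (25.2 to 49.8 and 9.9 to 27.2). The exons of Bmp6 overlap those of Txndc5 over 224 bases on the annotation used here; Txndc5 had 9201, 5366, 3465 and 6372 counts, and with no strand given for the libraries, reads there cannot be told apart. With the counts of both genes summed, most of which are those of Txndc5, the fitted log2 change with DKK1 was -0.05 and the difference between preparations -0.11. Cthrc1 (ENSMUSG00000054196, chr15:39076932-39087121, plus strand) had 10, 16, 3 and 8 counts, or 0.188, 0.299, 0.0729 and 0.174 CPM. Its log2 differences with DKK1 were 0.57 and 0.92, with counting error of 1.116 and 1.796 to either side. It was not tested, and the counting intervals of PBS and DKK1 overlap in both pairs.

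**Figure D2:**
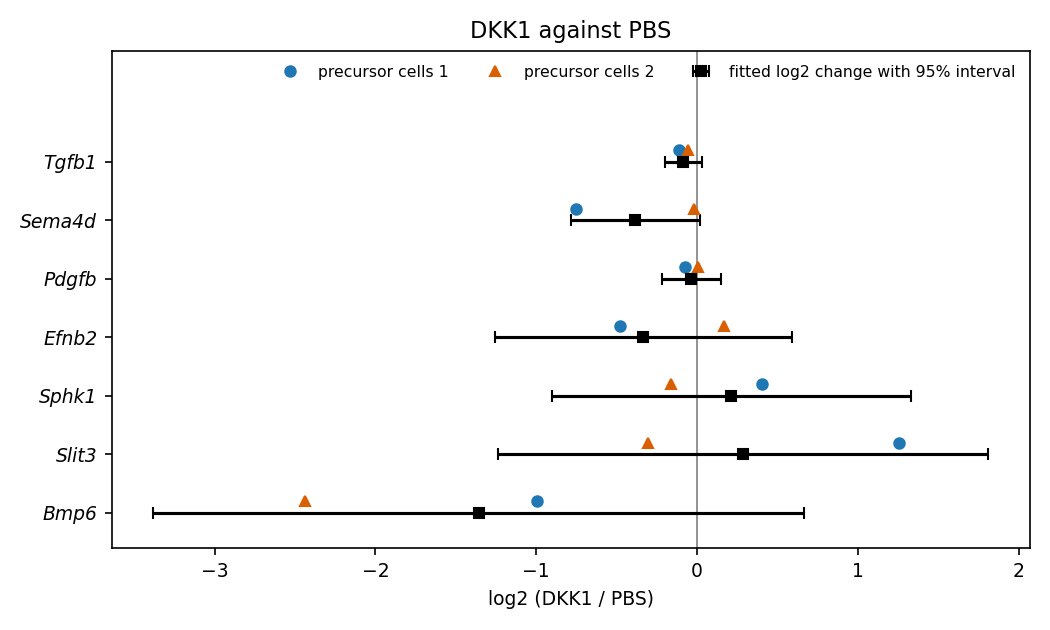
Log2 difference of DKK1 over PBS for the 7 tested coupling factors (horizontal axis); circles and triangles are the differences within precursor cells 1 and 2, and squares with bars are the edgeR estimates with 95% intervals. The bar of every gene crosses 0, from the narrow one of Tgfb1 (-0.20 to 0.03) to the wide one of Bmp6 (-3.38 to 0.66), and the Sema4d circle lies at -0.76 while its triangle lies at -0.02.

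More of the coupling factors passed the test between the 2 preparations of precursor cells than between treatments (3 against 0). In every one of the 7 tested genes, and in Cthrc1, both libraries of one preparation lay above both of the other in CPM (7 of 7 tested, 8 of 8 in all); this held for 12442 genes, or 71.3% of those tested. In the same edgeR fit, 3 of the 7 passed the threshold, Sema4d in the direction of precursor cells 2 and Pdgfb and Efnb2 in that of precursor cells 1. Of all genes 5905 passed (33.8%), 3125 higher (17.9%) and 2780 lower (15.9%) in precursor cells 2, so a share of 3 in 7 is near the background. Each preparation is 1 mouse with its pair of cultures, so the test compares these 2 preparations only.

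Sema4d was 2.68-fold higher in precursor cells 2 (log2 1.42, 95% CI 1.01 to 1.83; edgeR adjusted p = 0.00183). The log2 difference was 1.06 between the PBS libraries and 1.79 between the DKK1 libraries, with 656 against 356 CPM and 651 against 211 CPM. Most B cell markers lay the other way, with 9 of 10 lower and 1 higher in precursor cells 2, against 15.9% and 17.9% of all genes. The higher one was Cd22, by 0.91 (edgeR adjusted p = 0.000946), with 33.6, 29.2, 53.3 and 51.5 CPM in PBS 1, DKK1 1, PBS 2 and DKK1 2. The T and NK cell markers summed to 20.9 to 22.4 CPM in precursor cells 1 and 29.4 to 29.9 in precursor cells 2. The neutrophil markers were higher in precursor cells 2 in 11 of 11. Of the T and NK cell markers 7 of 10 had counts in every library, 1 was higher in precursor cells 2 (Cd4, by 1.21; edgeR adjusted p = 0.00132) and 1 lower (Cd8a, by -1.50; edgeR adjusted p = 0.011). Cd4 alone stood at 10.9 CPM in PBS 1, 13.2 in DKK1 1, 24.9 in PBS 2 and 24.7 in DKK1 2. It made up most of the T and NK cell sum in precursor cells 2. How much of Sema4d the B cells, T and NK cells or neutrophils contributed was not tested.

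Pdgfb was 1.54-fold lower in precursor cells 2 (log2 -0.62, 95% CI -0.81 to -0.44; edgeR adjusted p = 0.00206), by -0.66 between the PBS libraries and -0.58 between the DKK1 libraries. Efnb2 was 2.71-fold lower (log2 -1.44, 95% CI -2.46 to -0.42; edgeR adjusted p = 0.0431), on 26 and 33 counts against 130 and 93, and it did not pass with DESeq2 (adjusted p = 0.163). Tgfb1 had a log2 difference of -0.13 (95% CI -0.25 to -0.01; edgeR adjusted p = 0.085), which did not pass; it passed without scaling factors (log2 -0.30, edgeR adjusted p = 0.0075), a setting that moves the median of all genes to -0.174. Platelets and their precursors are rich in TGF-beta 1 and PDGF, and the 10 megakaryocyte and platelet markers, all with counts in every library, summed to 1870 to 1980 CPM in precursor cells 1 and 1140 in precursor cells 2. Of these 4 were lower in precursor cells 2 and 0 higher, against 15.9% and 17.9% of all genes, and the list median was -0.2. Pf4, with a log2 difference of -1.17 (edgeR adjusted p = 5.0e-05), was among the lower ones. Pf4 and Ppbp held most of the sum, with 890 and 535 CPM in PBS 1 and 333 and 332 CPM in PBS 2. The part of platelets and their precursors in Pdgfb and Tgfb1 was not tested.

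The remaining coupling factors did not pass. Slit3 had 40 and 36 counts in precursor cells 2 against 12 and 32 in precursor cells 1 (log2 1.24, 95% CI -0.29 to 2.78; edgeR adjusted p = 0.182), and the difference came to 2.09 between the PBS libraries and 0.52 between the DKK1 libraries. Bmp6 had 7 and 0 counts against 36 and 17 in the same order (log2 -2.39, 95% CI -4.82 to 0.04; edgeR adjusted p = 0.117). Sphk1 had 30 counts in each library of precursor cells 2 and 49 and 66 in precursor cells 1 (log2 -0.48, 95% CI -1.63 to 0.67; edgeR adjusted p = 0.481). Near-identical stretches to Sphk1 occur in 38 short gene models, 35 of them miRNA models, which hold 30 counts in all libraries together.

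**Figure D3:**
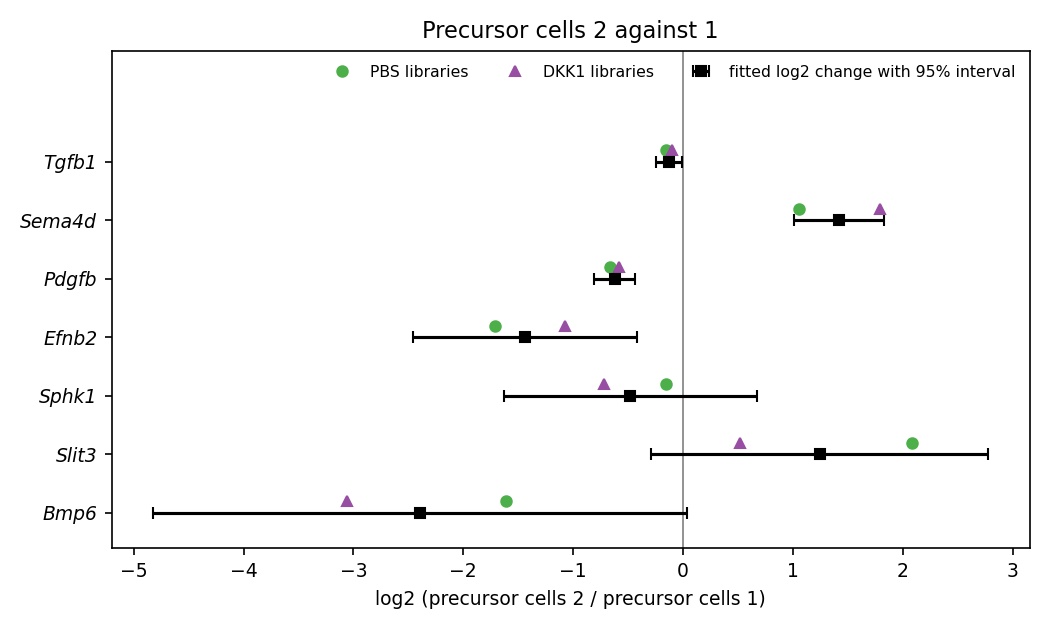
Log2 difference of precursor cells 2 over precursor cells 1 for the 7 tested coupling factors (horizontal axis); circles are the PBS libraries, triangles the DKK1 libraries, and squares with bars the edgeR estimates with 95% intervals. Sema4d lies to the right (1.42) and Pdgfb (-0.62) and Efnb2 (-1.44) to the left with bars clear of 0; the bar of Tgfb1 is clear of 0 as well, but its adjusted p is 0.085.

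The genes most like each coupling factor over the 4 libraries were sought among 9957 named genes of at least 5 CPM, for the 4 coupling factors with a mean of at least 1 CPM. Likeness was the Euclidean distance between log2 CPM centred on each gene's mean. For Sema4d these were Oas2 (distance 0.166), an interferon-induced antiviral enzyme, and Tlr7 (0.167), an endosomal receptor for single-stranded RNA. Oas2 stood at 119, 79.8, 254 and 232 CPM and Tlr7 at 85.6, 53.2, 164 and 183 CPM in PBS 1, DKK1 1, PBS 2 and DKK1 2, both low in DKK1 1 and high in precursor cells 2 as Sema4d was. For Pdgfb they were Rps4x (0.0189), a ribosomal protein gene, and Shmt2 (0.0201), a mitochondrial enzyme of one-carbon metabolism. For Tgfb1 they were Ppm1n (0.00745) and Taldo1 (0.00904), the latter an enzyme of the pentose phosphate pathway. For Efnb2 they were Mastl (0.122) and Prc1 (0.13), both genes of mitosis. With 4 libraries in 2 pairs, many genes have similar profiles, and no test is attached to this likeness.

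The receptors and partners of the coupling factors, and other coupling signals, were taken from 9 lists with 115 genes, of which 98 were tested. None passed the test of DKK1 against PBS, 6 had an unadjusted edgeR p under 0.05 (Sphk2, Ctf1, Erbb2, Adam17, Ephb4 and Itgav), where 4.47% of all genes did, and the median log2 difference of the 98 was 0.01 against -0.001 for all genes. Between preparations 34 were higher and 12 lower in precursor cells 2, which is 46.9% of those tested against 33.8% of all genes. In the paragraphs that follow, the difference between preparations is log2 of precursor cells 2 over 1, and passing means an edgeR adjusted p under 0.05. Counts of genes higher or lower in a partner or cell type list stand against 17.9% higher and 15.9% lower among all tested genes. Whether a single list departs from these shares was not tested.

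**Figure D4:**
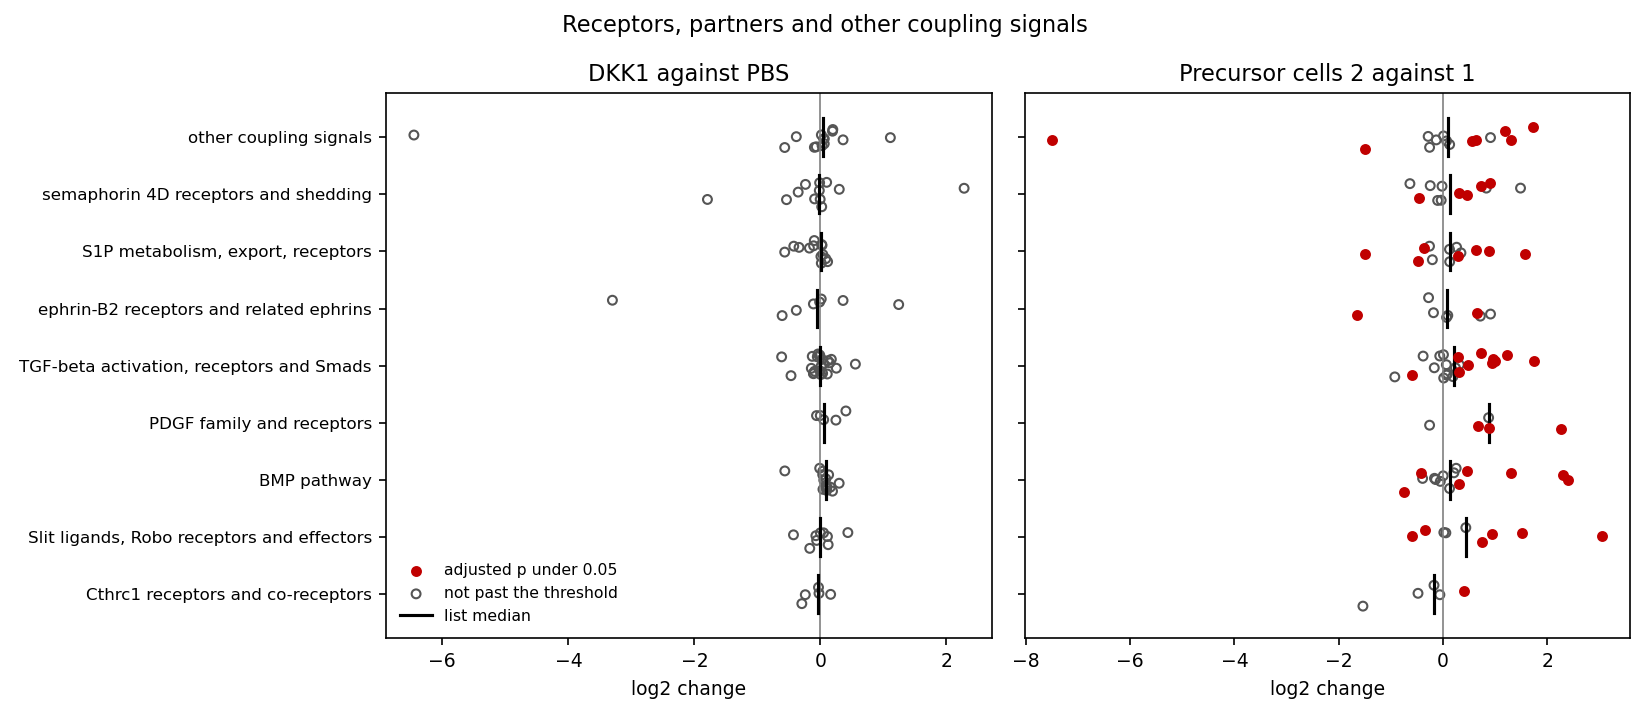
Fitted log2 change of each tested gene of the 9 lists for DKK1 against PBS (left) and precursor cells 2 against 1 (right); each circle is a gene, filled red where the edgeR adjusted p is under 0.05, and the black bar is the median of the list. No circle is filled on the left, 46 genes are filled on the right (Sphk2 and Bmp2 stand in 2 lists each), and the points far to the left (Ctf1 and Ephb4 in the left panel, Wnt10b in the right) are genes with libraries at 0, whose fitted size depends on the prior count.

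Semaphorin 4D signals through plexin-B receptors and Cd72 and is shed by membrane proteases. Of 12 such genes, all tested, 4 were higher (Cd72, Arhgef11, Mmp14, Plxnb2) and 1 lower (Adam10) in precursor cells 2, with a list median of 0.14. Plxnb1, the receptor on osteoblasts, had 0, 42, 10 and 10 counts, while Plxnb2 had 626, 657, 722 and 680 CPM. Cd72, a receptor for semaphorin 4D on immune cells, was higher by 0.90 (adjusted p = 9.6e-05), and Mmp14, a protease that sheds semaphorin 4D, by 0.46 (adjusted p = 0.00156). With DKK1, Adam17, a sheddase, had 383, 368, 407 and 260 CPM in PBS 1, DKK1 1, PBS 2 and DKK1 2; the low library is DKK1 2, not the one in which Sema4d was low (fitted log2 -0.35, edgeR adjusted p = 0.959). Erbb2, which plexin-B1 can associate with, had 30, 4, 47 and 20 counts and was lower with DKK1 in both pairs (edgeR adjusted p = 0.959). The list median for DKK1 was -0.015.

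Sphingosine 1-phosphate is made by Sphk1 and Sphk2, exported by Mfsd2b and Spns2, and read by S1P receptors. Sphk2 had 6423, 3261, 5133 and 5181 counts, and Sphk1, the other kinase, had 49, 66, 30 and 30. Sphk2 was low in DKK1 1 alone, with a log2 difference of -0.98 from PBS 1 and of -0.16 between DKK1 2 and PBS 2 (fitted -0.57, edgeR adjusted p = 0.959). Of 13 tested genes 4 were higher (S1pr2, S1pr3, Sgpl1, Sphk2) and 3 lower (Spns2, Sgpp1, Plpp1) in precursor cells 2. For Sphk2 (0.63, adjusted p = 0.0486) the difference was 0.22 between the PBS libraries and 1.05 between the DKK1 libraries. S1pr2, a receptor that repels precursors, differed by 0.89 (adjusted p = 0.00032), and S1pr3, at 1.16, 1.27, 3.26 and 3.22 CPM, by 1.58 (adjusted p = 0.0113). The lyase Sgpl1, which breaks the lipid down, differed by 0.29 (adjusted p = 0.00911). Spns2 stood at 5.26 and 3.59 CPM in precursor cells 1 and at 1.21 and 1.52 in precursor cells 2, and Mfsd2b had 46.8, 40.1, 31.6 and 32.8 CPM. S1pr1, the receptor that draws precursors toward blood, had 28.8, 26.3, 22.9 and 19.7 CPM (edgeR adjusted p = 0.959 for DKK1). The list medians were 0.009 for DKK1 and 0.13 for the preparations.

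Ephrin-B2 binds Eph receptors and can signal back into the cell that carries it. Of 11 genes 8 were tested, with 1 higher (Nck2, an adaptor of ephrin-B reverse signalling, by 0.66; adjusted p = 0.00898) and 1 lower (Epha4, by -1.65; adjusted p = 0.0176) in precursor cells 2. Ephb4, the receptor on osteoblasts, had 31 counts in PBS 1, 8 in DKK1 1, 45 in PBS 2 and 0 in DKK1 2, low with DKK1 in both pairs. It did not pass (edgeR adjusted p = 0.959). Efnb1, a related ligand, had 159, 216, 122 and 165 counts, higher with DKK1 in both pairs (fitted log2 0.36, edgeR adjusted p = 0.959). The list medians were -0.06 for DKK1 and 0.08 for the preparations.

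TGF-beta 1 is secreted in a latent form, and other genes process, release and read it. Of 22 tested genes of 23, 9 were higher in precursor cells 2 (Tgfbr1, Tgfbr3, Eng, Nrros, Ltbp3, Thbs1, Ski, Skil and Tgfbi) and 1 was lower (Furin). Tgfbi, a matrix protein induced by TGF-beta, had 663, 630, 1928 and 1933 CPM and differed by 1.75 (adjusted p = 6.8e-06). Eng, a co-receptor, differed by 1.22 (adjusted p = 0.000162) and Nrros, which holds latent TGF-beta on myeloid cells, by 0.74 (adjusted p = 0.000353). Furin, the protease that cleaves the TGF-beta precursor, lay the other way, by -0.59 (adjusted p = 0.000785), with 264, 245, 158 and 143 CPM. Tgfb1 itself had a log2 difference of -0.13 that did not pass. With DKK1, Itgav, a subunit of integrins that release TGF-beta, had 110, 211, 99.0 and 110 CPM, highest in DKK1 1 (fitted log2 0.56, edgeR adjusted p = 0.959). Tgfbr2 had 110, 117, 108 and 106 CPM. Over this list the median was 0.001 for DKK1 and 0.22 for the preparations.

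PDGF-BB acts through Pdgfrb, and Nrp1 serves as a co-receptor. Of 5 tested genes of 6, 3 were higher in precursor cells 2 and none was lower, against 17.9% and 15.9% of all genes. Pdgfb itself was lower. Pdgfrb, the receptor of PDGF-BB on mesenchymal cells, had 329, 401, 516 and 456 counts and differed by 0.88 (adjusted p = 0.021). Nrp1 differed by 0.67 (adjusted p = 0.00186). Pdgfc differed by 2.27 (adjusted p = 0.0162), with 66 and 28 counts against 116 and 218. Pdgfra, a fibroblast and mesenchymal marker, had 47, 80, 76 and 94 counts (edgeR adjusted p = 0.97 for DKK1). Stromal and osteoblast markers summed to 83.2, 112, 127 and 121 CPM, with 13 of 15 genes counted in every library; their part in these levels was not tested. Over this list the median was 0.05 for DKK1 and 0.88 for the preparations.

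For BMP signalling, 15 of 21 genes were tested; Bmpr1b had no counts and Hjv is not analysed here. In precursor cells 2, 5 were higher (Bmp2, Bmpr1a, Smad1, Id2, Grem1) and 2 lower (Id1, Id3). Bmpr1a, a type I receptor, had 76, 84, 254 and 365 counts and differed by 2.40 (adjusted p = 0.00101), and Grem1, a secreted BMP antagonist, had 56, 76, 217 and 255 counts and differed by 2.30 (adjusted p = 0.00198). Id1, a target gene of BMP receptors, had 61.6, 60.4, 30.9 and 33.7 CPM and differed by -0.75 (adjusted p = 0.00189), while Id2 was higher. Bmp6, on few counts, was lower but did not pass. Bmpr2 had 55.0, 57.4, 54.9 and 60.7 CPM (edgeR adjusted p = 0.963 for DKK1). Medians over the BMP genes were 0.09 for DKK1 and 0.13 for the preparations.

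Of the Slit and Robo genes 9 of 11 were tested, with 4 higher (Srgap1, Srgap2, Robo4, Gpc1) and 2 lower (Robo3, Nck1) in precursor cells 2. Robo4, the Robo receptor of endothelium, had 16, 13, 96 and 79 counts and differed by 3.06 (adjusted p = 0.00743), in the same direction as Slit3, which did not pass. Endothelial markers summed to 218 to 229 CPM in precursor cells 1 and 292 to 298 in precursor cells 2, with 9 of 10 counted in every library and 4 higher and 1 lower; their part was not tested. Srgap2, a GTPase-activating protein downstream of Robo, differed by 0.74 (adjusted p = 0.000236), and Gpc1, a proteoglycan that binds Slit, by 0.95 (adjusted p = 0.00108). Robo1, a main receptor of Slit3, had 5, 10, 0 and 31 counts and was not tested. Slit2 had 85, 84, 37 and 89 counts (edgeR adjusted p = 0.97 for DKK1). The list medians were near 0 for DKK1 and 0.44 for the preparations.

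Of the receptors, co-receptors and signalling genes linked to Cthrc1, 5 of 6 were tested and 1 was higher in precursor cells 2. That gene was Prkcd, a protein kinase C and not a receptor, by 0.39 (adjusted p = 0.00123) at 603 to 717 CPM. Fzd3 had 53, 32, 5 and 16 counts (edgeR adjusted p = 0.983 for DKK1), and Tpbg, a receptor reported for Cthrc1, had 62, 74, 44 and 51. Their medians were -0.03 for DKK1 and -0.17 for the preparations.

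Further signals from the osteoclast lineage to osteoblasts were taken as a list of their own. Of 16 genes 14 were tested and Igf2 had no counts. C3, the complement component, had 659, 687, 1976 and 1977 CPM and was higher in precursor cells 2 by 1.73 (adjusted p = 6.8e-06). Cxcl16, a chemokine, differed by 0.56 (adjusted p = 0.000523) and Hgf, hepatocyte growth factor, by 1.18 (adjusted p = 0.00464). Bmp2 and Sphk2 were the other 2 that were higher. Lif, a cytokine that acts on osteoblasts, was lower, with 181 and 178 counts against 38 and 55, as was Wnt10b, with 16 and 35 counts against 0 and 0 (adjusted p = 0.018 and 0.0487). Ctf1, which encodes cardiotrophin-1, had 12 counts in PBS 1, 0 in DKK1 1, 9 in PBS 2 and 0 in DKK1 2, low with DKK1 in both pairs (edgeR adjusted p = 0.959). Igf1 had 271, 285, 221 and 231 CPM and Osm 6.37, 7.71, 4.98 and 5.30. The list medians were 0.04 for DKK1 and 0.10 for the preparations.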

How the data were processed

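RNA-seq libraries from osteoclast precursor cells of 2 mice with DKK1 or PBS (4 libraries) were analysed from the deposited gene counts. The submitters' processing notes name fastp, HISAT2 and the build mm10; the counting program, annotation and strand are not given in sources used for this work. The deposited counts are whole numbers per gene without normalization. The tables the authors deposited for each pair give, per the file headers, a log2 ratio of DKK1 over PBS, a p-value and FDR from an unstated test, and FPKM values, which are scaled for length and depth; all were used only where named. The sum of counts was 41163663 to 53537927 per library; count intervals reflect counting error alone.

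The model was edgeR 4.0.16 quasi-likelihood (R 4.3.3; TMM, filterByExpr, full library totals) with terms for precursor cells and treatment over all 17462 genes that passed, two-sided, with Benjamini-Hochberg adjustment and a threshold of 0.05; it leaves 1 residual degree of freedom. CPM and levels per kilobase use library totals, and log2 differences within a pair or treatment use TMM-scaled CPM with a prior count of 2. The cultures are paired because same-numbered libraries come from the same mouse, per the labels' protocols; the deviations of libraries with the same number from the mean of their treatment correlated at 0.726. Exon lengths, positions and overlaps come from GENCODE M21 (GRCm38; 53706 gene IDs matched, 95 did not), near-identical models from BLAST 2.17.0 (minimum 95% identity across 100 bases, covering 50% of the shorter transcript or more), and promoter windows from RefSeq. The model was tested on simulated data with 200 changed genes, drawn from genes above a minimum mean count, where 91 genes were called and 0 of them falsely. Each simulated gene was given the spread that the trend over all genes sets for its level.

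The coupling factors and gene lists were chosen with earlier results of these data known. In each partner list the rule named the 2 genes with the smallest p for DKK1 and up to 3 called between preparations with the smallest p; in cell type lists the 2 most abundant, of which not all are printed. Other partner and marker genes given with values (Plxnb1, Plxnb2, Mfsd2b, Spns2, Tgfbr2, Robo1, Tpbg, Lif, Wnt10b, Igf1, Osm, Tnfrsf11a, Calcr, Txndc5) and those named only as called were chosen after their values were seen. Alternatives were DESeq2 1.42.0, limma-voom 3.58.1, edgeR's legacy test, other scaling, other filters, no block, other prior counts (0.5 and 5) and each library left out.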

Additional observations from a re-analysis of the deposited data

Results flagged for a closer look

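In 4 coupling factors the log2 difference with DKK1 had opposite signs in the 2 preparations, and the difference between the pairs was not tested. In none of the 4 did both pairs lie beyond counting error. The log2 difference, DKK1 minus PBS, of Slit3 was 1.255 for the cells numbered 1 and -0.308 for those numbered 2. That of Sphk1 was 0.406 and -0.16, and that of Efnb2 -0.48 and 0.165. That of Pdgfb was -0.074 and 0.006. Counting error to either side was 0.941 and 0.645 for Slit3, 0.531 and 0.724 for Sphk1, 0.383 and 0.735 for Efnb2, and 0.059 and 0.086 for Pdgfb. Of all tested genes, 51.8% had the same sign in both pairs.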

How the results depend on the processing

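With DKK1 against PBS, each alternative run left 0 coupling factors past the threshold, while the number of all genes that passed, 9, was 46 with DESeq2, 15 with a stricter filter (1 CPM in 2 libraries), 5 with upper-quartile scaling, 3 without scaling factors, 3 with edgeR's legacy test, 2 with limma-voom and 0 without a filter on low counts (911 at an unadjusted p under 0.05). With no replicate block, that is without the pairing, 0 passed (115 at an unadjusted p under 0.05 by edgeR). Leaving out each library in turn, also without the block, gave 0 to 0 genes (103 to 169 at an unadjusted p under 0.05). These unpaired fits with 1 library less gave log2 changes from -1.37 to 0.41 for Sema4d (above 0 without DKK1 1 or PBS 2), -0.98 to 0.84 for Efnb2 and -0.36 to 0.33 for Pdgfb (above 0 without DKK1 2 or PBS 1), -0.57 to 1.70 for Slit3 (below 0 without the same) -0.25 to 0.50 for Sphk1 (below 0 without DKK1 1) and -7.28 to -0.21 for Bmp6 (without DKK1 1, which leaves a DKK1 library at 0, and without PBS 1); each then sets 1 library of a group against 2 of the other, and by construction mixes the preparations into the contrast. Between preparations the 5905 genes that passed were 3507 without a filter. There Efnb2 no longer passed with DESeq2, edgeR's legacy test (adjusted p = 0.0546), limma-voom (0.0613) and no filter (0.114), and Tgfb1 passed without scaling factors and with upper-quartile scaling (log2 -0.18, adjusted p = 0.0336). Of the other values for single coupling factors, 74 for DKK1 and 49 for the preparations kept direction and side of the threshold. The authors' FPKM values were lower than the levels per kilobase, for example 24.8 against 27.5 for Sema4d in DKK1 1. Depth limits Bmp6, Cthrc1, Slit3, Sphk1 and Efnb2, with 0 to 130 counts per library.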
